A study of Bos taurus with 33 samples.

Results

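The complement genes described here are 10 components of the classical and alternative pathways: the C1q chains C1QA, C1QB and C1QC, the proteases C1R and C1S, the components C4A, C2 and C3, factor B (CFB) and the C1 inhibitor gene SERPING1. They were chosen by name, with earlier results of these data known. Every probe set that the annotation of the Affymetrix bovine genome array gives for them was taken. That gave 14 probe sets for the 10 genes, of 24016 probe sets tested and 9155 named genes: C2 and SERPING1 have 2 probe sets each, C3 has 3 and the others have 1. All 14 had a value on every array, and none was removed by a filter on low signal.

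The arrays measured total RNA of the endometrium, the lining of the uterus, in 33 Bavarian Simmental heifers, 1 array per heifer. All heifers were synchronised with the prostaglandin analogue cloprostenol, and all samples came from the uterine horn on the side of the corpus luteum. Of 9 heifers that were biopsied, 3 had been given a lipid extrudate releasing human interferon alpha (IFNA) in PBS on cycle day 14, 3 the same extrudate without interferon (placebo) and 3 only PBS, and about 6 biopsies per heifer were taken from the caudal horn on day 16 after the uterus had been flushed. In the slaughter experiment, intercaruncular endometrium came from inseminated pregnant heifers and from cyclic heifers that had received sperm-free seminal supernatant: 5 and 5 on day 12, 3 and 3 on day 15, and 4 and 4 on day 18. The part of the horn sampled was distal on day 12, medial on day 15 and caudal on day 18, so day and part of the horn cannot be told apart. Which heifers share a farm or a processing batch was not given in the sources used here.

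Complement is a cascade of plasma and tissue proteins. In the classical pathway C1q binds antibody or other ligands and activates the proteases C1r and C1s, and C1s cleaves C4 and C2, whose fragments form the enzyme that cleaves C3. In the alternative pathway factor B joins with cleaved C3 to form the enzyme that cleaves further C3, and the C1 inhibitor blocks C1r and C1s. The liver makes most circulating complement, macrophages and dendritic cells are a main source of C1q, and the ruminant conceptus secretes interferon tau, a type I interferon that signals through the same receptor as interferon alpha.

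Several members are neighbours in the genome. In the RefSeq annotation of assembly ARS-UCD2.0, C1QA and C1QC are adjacent on chromosome 2 with C1QB nearby, C1R and C1S are adjacent on chromosome 5, and C2 and CFB are adjacent on chromosome 23, with 4 genes (STK19, DXO, SKIC2 and NELFE) between CFB and C4A. The annotation table lists 1 C4 gene, C4A. Complement C4 is known for copy number variation in mammals, and the probe set cannot tell near-identical copies apart.

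Values are log2 expression levels, and a difference is the mean log2 level of 1 group minus that of the other, with the standard error from limma. Replicates are separate heifers. A probe set is said to rise or fall where the Benjamini-Hochberg adjusted p over all 24016 probe sets was below 0.05. Groups are also described as apart or overlapping. The share of all probe sets that lie apart in the same groups was not counted, so this is a description only. The biopsies and the 3 slaughter days were normalised as 4 separate sets of arrays, as far as the values show, so levels are compared within a set and only differences are compared between sets. The known interferon-stimulated genes MX2 and ISG15 served as a check of the labels: MX2 was 5.41 higher with IFNA than with placebo, 5.32 higher in pregnant than in cyclic heifers on day 15 and 5.57 higher on day 18, and ISG15 was 4.91, 5.24 and 4.90 higher. In the biopsies, the difference between the 3′ and 5′ control probe sets of GAPDH, a sign of RNA degradation, averaged 2.38 with IFNA, 2.58 with placebo and 2.67 with PBS, against 0.15 over the 24 slaughter arrays. In whole tissue, a change in the number of cells of a type and a change in RNA per cell cannot be told apart. Markers of epithelium (means of 8.49 to 10.08 per array) and stroma (10.87 to 11.88) had signal on every array.

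Complement transcripts rose with IFNA and on day 18 of pregnancy, in part on day 15, and not detectably on day 12. With IFNA, 7 of the 10 genes rose against placebo, namely C1QB, C1QC, C1R, C1S, C4A, C2 and SERPING1, each by 1 probe set, while 0.837% of all probe sets rose. The other 3 genes, C1QA, C3 and CFB, did not pass. On day 15, 5 probe sets of 4 genes (C4A, C1R, C1S and both of SERPING1) rose in pregnant against cyclic heifers, while 2.75% of all probe sets rose. On day 18 all 14 probe sets rose, while 8.84% of all probe sets rose. The median difference of the 14 probe sets was 1.28 with IFNA, 0.46 on day 15 and 1.19 on day 18, where the medians of all probe sets were -0.02, -0.01 and -0.03. Because the genes were chosen with earlier results of these data known, these counts describe them and are not an independent test.

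**Figure D1:**
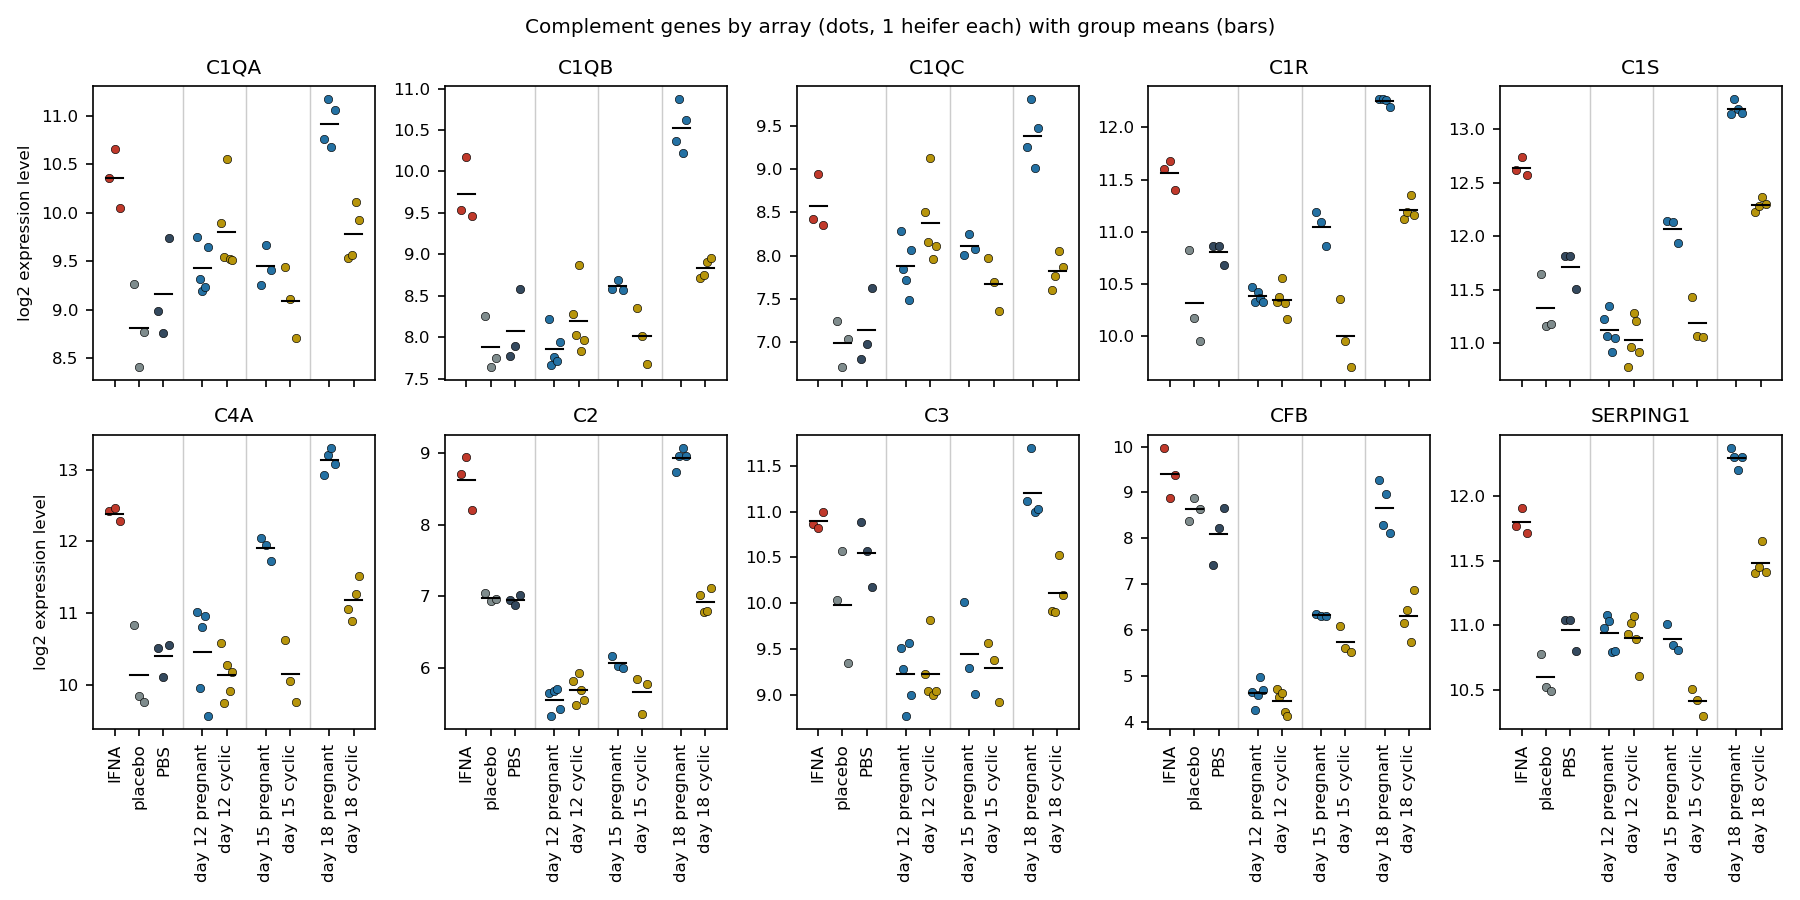
Log2 expression level of the 10 complement genes (for genes with several probe sets, the one with the highest mean) on each of 33 arrays, with groups along the horizontal axis; dots are single heifers (red IFNA, light grey placebo, dark grey PBS, blue pregnant, yellow cyclic) and bars are group means. The day 18 pregnant heifers lie above the day 18 cyclic heifers in every panel, and the IFNA heifers lie above the placebo heifers in every panel but that of CFB, where 1 IFNA heifer (8.87) lies just under the highest placebo heifer (8.89). Levels are compared only between the vertical lines. The share of all probe sets that lie apart in the same groups was not counted.

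C1QA, C1QB and C1QC encode the A, B and C chains of C1q, the recognition molecule of the classical pathway. C1QB had log2 levels of 9.54, 10.18 and 9.46 in the IFNA heifers, 8.26, 7.64 and 7.75 in the placebo heifers and 7.77, 7.89 and 8.58 in the PBS heifers. The IFNA heifers lay above both control groups without overlap. The rise was 1.84 ± 0.274 against placebo (3.59-fold, adjusted p = 0.0167) and 1.65 ± 0.274 against PBS (adjusted p = 0.0317). C1QC, at 8.42, 8.94 and 8.36 with IFNA against 7.24, 6.71 and 7.03 with placebo, rose by 1.58 ± 0.247 (adjusted p = 0.0221), and by 1.44 ± 0.247 against PBS (adjusted p = 0.0367). C1QA reached 10.36, 10.66 and 10.05 with IFNA, against 9.27, 8.41 and 8.77 with placebo and 8.99, 8.76 and 9.74 with PBS. Its groups did not overlap either, but the differences of 1.54 ± 0.297 against placebo (adjusted p = 0.0635) and 1.19 ± 0.297 against PBS (adjusted p = 0.159) did not pass. Against placebo C1QA passed without dim probe sets (1.54, adjusted p = 0.0498) and with the 3′ to 5′ difference of GAPDH as a covariate (1.50, adjusted p = 0.0399), where the adjusted p ranged up to 0.265 over the 12 alternatives. The calls of C1QB and C1QC against placebo ended without IFNA heifer 2, placebo heifer 2 or placebo heifer 3, and that of C1QC also without IFNA heifer 3. Over all 6 fits without 1 heifer, the differences were 1.62 to 2.03 for C1QB and 1.40 to 1.70 for C1QC. Against PBS both calls ended without any 1 heifer other than PBS heifer 3. The differences over all 6 of those fits were 1.42 to 1.90 and 1.25 to 1.68.

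In pregnancy the C1q chains were clearly higher on day 18. C1QB had 10.37, 10.87, 10.22 and 10.62 in the pregnant heifers against 8.72, 8.75, 8.91 and 8.96 in the cyclic heifers, a rise of 1.69 ± 0.185 (3.22-fold, adjusted p = 8.33e-07). C1QC had 9.26, 9.81, 9.01 and 9.48 against 7.60, 7.76, 8.05 and 7.87, a rise of 1.57 ± 0.215 (adjusted p = 1.89e-05). C1QA had 10.76, 11.17, 10.68 and 11.06 against 9.53, 9.57, 10.11 and 9.93, a rise of 1.13 ± 0.21 (adjusted p = 0.000558). Pregnant and cyclic heifers did not overlap for any of the 3 chains. On day 15 none of the chains passed: C1QB differed by 0.60 ± 0.213 (adjusted p = 0.111), C1QC by 0.44 ± 0.248 and C1QA by 0.36 ± 0.242. Day 15 levels of C1QB were 8.58, 8.69 and 8.57 in pregnant heifers and 8.35, 8.01 and 7.68 in cyclic heifers, apart by a small gap, and those of C1QA overlapped. On day 12 the pregnant means were the lower ones, by -0.49 ± 0.192 for C1QC, -0.38 ± 0.188 for C1QA and -0.33 ± 0.165 for C1QB, with overlapping levels and adjusted p of 0.666, 0.774 and 0.769.

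C1R and C1S encode the proteases that C1q activates. C1S had 12.62, 12.74 and 12.57 in the IFNA heifers, 11.65, 11.16 and 11.18 in the placebo heifers and 11.82, 11.82 and 11.51 in the PBS heifers. The IFNA levels lay close together and above every control heifer. The rise was 1.31 ± 0.154 against placebo (2.49-fold, adjusted p = 0.00388) and 0.93 ± 0.154 against PBS (adjusted p = 0.0317). C1R had 11.60, 11.68 and 11.40 with IFNA, 10.82, 10.17 and 9.95 with placebo and 10.86, 10.86 and 10.68 with PBS. It rose by 1.25 ± 0.205 against placebo (adjusted p = 0.0287), whereas 0.76 ± 0.205 against PBS did not pass (adjusted p = 0.189). Fitted on the IFNA and PBS arrays alone, C1R passed against PBS (adjusted p = 0.0401), where the adjusted p ranged up to 0.571 over the 12 alternatives. The call of C1R against placebo ended when any 1 of the 6 heifers other than placebo heifer 1 was left out (1.07 to 1.50 over all 6 fits). The call of C1S against PBS ended without any 1 of the 6 heifers (0.82 to 0.98).

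Both proteases rose in pregnant against cyclic heifers on day 15 and on day 18. On day 15 C1R had 11.19, 11.09 and 10.86 in pregnant heifers against 10.35, 9.95 and 9.70 in cyclic heifers, a rise of 1.05 ± 0.12 (2.07-fold, adjusted p = 4.57e-06). C1S had 12.14, 12.13 and 11.94 against 11.43, 11.07 and 11.06, a rise of 0.88 ± 0.123 (adjusted p = 6.81e-05). C1R had the smallest adjusted p of the set on that day. On day 18 the 4 pregnant heifers had C1R levels of 12.27, 12.27, 12.26 and 12.20, almost without spread, against 11.12, 11.19, 11.35 and 11.16 in cyclic heifers. The rise was 1.04 ± 0.104 (adjusted p = 1.9e-07), and that of C1S was 0.89 ± 0.106 (adjusted p = 2.67e-06). On day 12 C1R lay at 10.32 to 10.47 in pregnant and 10.16 to 10.55 in cyclic heifers, and C1S at 10.92 to 11.35 and 10.78 to 11.28, with overlapping ranges.

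C4A encodes complement C4, the substrate that C1s cleaves first, and it had the largest difference of the set with IFNA and on day 15. Its levels were 12.42, 12.46 and 12.28 in the IFNA heifers, 10.83, 9.84 and 9.76 in the placebo heifers and 10.52, 10.11 and 10.56 in the PBS heifers. The IFNA levels were close together, and the gap to the highest control heifer was 1.45. C4A rose by 2.24 ± 0.266 against placebo (4.73-fold, adjusted p = 0.0041) and by 1.99 ± 0.266 against PBS (3.97-fold, adjusted p = 0.00975), where the call ended without IFNA heifer 2 or PBS heifer 2. On day 15 it had 12.04, 11.95 and 11.73 in pregnant heifers against 10.63, 10.06 and 9.76 in cyclic heifers, a rise of 1.76 ± 0.302 (3.38-fold, adjusted p = 0.000933). On day 18 it had 12.93, 13.21, 13.30 and 13.08 against 11.06, 10.89, 11.27 and 11.51, a rise of 1.95 ± 0.262 (3.86-fold, adjusted p = 1.49e-05). On day 12 the pregnant heifers were widely spread, at 11.01, 9.95, 10.81, 10.96 and 9.57, against 10.58, 9.74, 10.27, 9.92 and 10.18 in cyclic heifers. Of the pregnant heifers, 3 lay above every cyclic heifer and 1 lay below every one, and the difference of 0.32 ± 0.234 did not pass (adjusted p = 0.88).

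C2 encodes the protease that joins with cleaved C4 to form the enzyme acting on C3. Its first probe set, the one with the higher mean over all arrays, had 8.71, 8.95 and 8.20 in the IFNA heifers, 7.04, 6.93 and 6.96 in the placebo heifers and 6.94, 6.87 and 7.01 in the PBS heifers. The 6 control heifers lay between 6.87 and 7.04, and the gap from the highest of them to the lowest IFNA heifer was 1.16. The rise was 1.64 ± 0.172 against placebo (3.12-fold, adjusted p = 0.00195) and 1.68 ± 0.172 against PBS (3.20-fold, adjusted p = 0.00183). On day 15 this probe set was at 6.17, 6.03 and 6.00 in pregnant heifers against 5.84, 5.36 and 5.77 in cyclic heifers. The groups were apart, but the difference of 0.41 ± 0.136 did not pass (adjusted p = 0.0863). On day 18 it was at 8.73, 8.96, 9.07 and 8.96 against 7.02, 6.78, 6.79 and 7.11, a rise of 2.01 ± 0.118 (4.01-fold, adjusted p = 3.47e-11), the smallest adjusted p of any complement probe set in any comparison.

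The second C2 probe set had low signal in the biopsies, at 4.99 to 5.74. Its levels were 5.74, 5.38 and 5.43 in the IFNA heifers against 5.39, 4.99 and 5.11 in the placebo heifers, overlapping by 0.01, and its difference of 0.35 ± 0.135 did not pass (adjusted p = 0.486). On day 18 the same probe set was at 7.66, 7.93, 7.99 and 7.84 in pregnant heifers against 6.34, 5.71, 6.16 and 6.16 in cyclic heifers, a rise of 1.76 ± 0.13 (3.39-fold, adjusted p = 1.54e-09). Both probe sets thus rose in day 18 pregnancy, and 1 of them rose with IFNA. The transcripts that each detects were not analysed here.

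**Figure D2:**
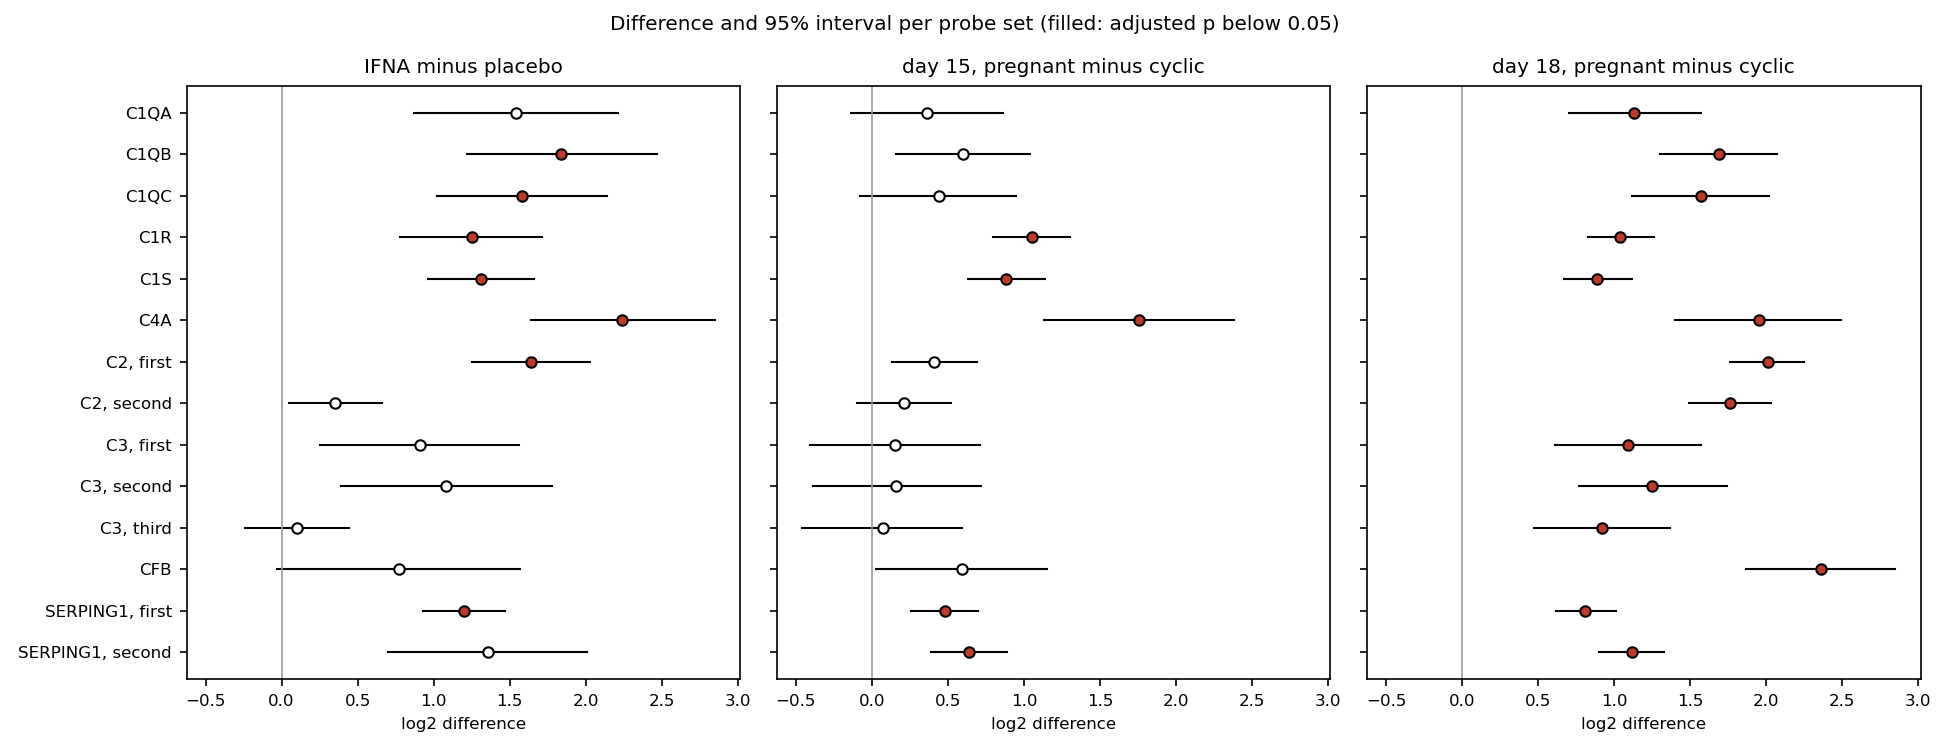
Log2 difference (dots) with its 95% interval (lines) for each of the 14 complement probe sets, for IFNA minus placebo, day 15 pregnant minus cyclic and day 18 pregnant minus cyclic; filled dots have an adjusted p below 0.05, and the probe sets of 1 gene are ordered by mean level, highest first. With IFNA, C4A lies furthest right (2.24) and 7 dots are filled; on day 15, 5 are filled; on day 18 all 14 are filled, from 0.81 for SERPING1 to 2.36 for CFB.

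C3 encodes the component on which the pathways converge. Its first probe set, the one with the highest mean over all arrays, had 10.86, 10.82 and 11.00 in the IFNA heifers, 10.04, 10.57 and 9.35 in the placebo heifers and 10.89, 10.57 and 10.18 in the PBS heifers. The IFNA heifers lay above the placebo heifers but not above the PBS heifers. The differences of 0.91 ± 0.289 against placebo (adjusted p = 0.348) and 0.35 ± 0.289 against PBS (adjusted p = 0.875) did not pass. The second, of the same source sequence, gave 1.08 ± 0.307 against placebo (adjusted p = 0.259), and the third, which was dim at 3.93 to 4.51 on the biopsy arrays, gave 0.10 ± 0.149. With the 3′ to 5′ difference of GAPDH as a covariate, the first C3 probe set differed by 0.98 between IFNA and placebo and passed (adjusted p = 0.00856, where the adjusted p ranged up to 0.691 over the 12 alternatives). On day 15 the 3 probe sets differed by 0.15 ± 0.268, 0.16 ± 0.268 and 0.07 ± 0.252, with overlapping levels. On day 18 the first had 11.11, 11.69, 10.99 and 11.03 in pregnant heifers against 9.92, 9.91, 10.53 and 10.09 in cyclic heifers, a rise of 1.09 ± 0.232 (2.13-fold, adjusted p = 0.00189), and the others rose by 1.25 ± 0.232 and 0.92 ± 0.218.

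CFB encodes factor B, the protease of the alternative pathway, and had the largest difference of the 14 probe sets on day 18. Its levels on that day were 9.28, 8.29, 8.96 and 8.12 in the pregnant heifers against 6.16, 6.43, 5.74 and 6.88 in the cyclic heifers. The groups were 1.24 apart in spite of a spread of over 1 log2 unit within each. The rise was 2.36 ± 0.235 (5.13-fold, adjusted p = 1.94e-07). With IFNA, CFB had 9.97, 8.87 and 9.38, against 8.37, 8.89 and 8.65 with placebo and 7.42, 8.22 and 8.67 with PBS. It overlapped the placebo heifers, and neither 0.77 ± 0.351 against placebo (adjusted p = 0.606) nor 1.30 ± 0.351 against PBS (adjusted p = 0.189) passed. On day 15 it was at 6.35, 6.30 and 6.31 in pregnant heifers against 6.08, 5.60 and 5.51 in cyclic heifers, 0.59 ± 0.272 higher without passing (adjusted p = 0.24), and on day 12 it was dim in both groups, at 4.26 to 4.97 and 4.13 to 4.72.

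SERPING1 encodes the C1 inhibitor, the plasma serpin that inactivates C1r and C1s. Its first probe set, the one with the higher mean over all arrays, had 11.77, 11.91 and 11.71 in the IFNA heifers, 10.78, 10.52 and 10.49 in the placebo heifers and 11.04, 11.04 and 10.80 in the PBS heifers. All IFNA heifers lay above all control heifers. The rise against placebo, 1.20 ± 0.12 (2.30-fold), had the smallest adjusted p of the set in that comparison (0.0015), and the rise against PBS was 0.84 ± 0.12 (adjusted p = 0.015). The call against PBS ended without IFNA heifer 2 or any 1 PBS heifer (0.76 to 0.88 over all 6 fits without 1 heifer). Its second probe set differed by 1.36 ± 0.289 from placebo (adjusted p = 0.0919), with more spread between heifers (9.71, 9.37 and 8.84 with IFNA against 8.19, 7.33 and 8.33 with placebo). It passed with the GAPDH covariate (1.29, adjusted p = 0.0114, where the adjusted p ranged up to 0.341 over the 12 alternatives). On day 15 the first probe set rose by 0.48 ± 0.106 (adjusted p = 0.00938), from 3 pregnant heifers at 11.01, 10.85 and 10.81 and 3 cyclic heifers at 10.51, 10.42 and 10.30, and the other by 0.64 ± 0.118 (adjusted p = 0.00195). The first of these calls ended without pregnant heifer 1 or cyclic heifer 3. On day 18 the rises were 0.81 ± 0.0918 and 1.12 ± 0.102 (adjusted p = 1.31e-06 and 5.38e-08), with 12.37, 12.30, 12.20 and 12.30 against 11.40, 11.45, 11.65 and 11.41 for the first probe set.

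With the extrudate alone, no probe set of these genes passed. Between placebo and PBS, 0 of 14 probe sets passed with limma and 3 had an unadjusted p below 0.05, while 0% of all probe sets passed and 651 of 24016 had an unadjusted p below 0.05. Of the 14, 1 was apart, the first SERPING1 probe set, at 10.49 to 10.78 with placebo against 10.80 to 11.04 with PBS. The placebo means were lower for SERPING1 (-0.36 ± 0.12), C1S (-0.39 ± 0.154) and C1R (-0.49 ± 0.205), with an adjusted p of 0.999 each, so the differences of these genes from IFNA were larger against placebo than against PBS. For C3 the difference was -0.56 ± 0.289 and for CFB 0.53 ± 0.351. Against PBS, 6 of 14 probe sets rose with IFNA (C4A, C2, C1QB, C1QC, SERPING1 and C1S), while 0.712% of all probe sets rose. The comparisons with placebo and PBS share the IFNA heifers. Without 1 heifer, the count against placebo was 4 to 7, lowest without IFNA heifer 2, placebo heifer 2 or placebo heifer 3. The count against PBS was 1 without IFNA heifer 2 or PBS heifer 2, 2 without PBS heifer 1, 3 without IFNA heifer 1 or 3, and 4 without PBS heifer 3. On day 12, 0 of 14 probe sets passed with limma in pregnant against cyclic heifers and 1 had an unadjusted p below 0.05, while 0.00416% of all probe sets passed and 1597 had an unadjusted p below 0.05.

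Whether the effects differed in size was tested directly. The contrasts of IFNA with pregnancy, and those between days, take log2 differences as comparable between sets of arrays normalised separately. This was not tested, and the biopsies also had the larger 3′ to 5′ differences of GAPDH given above. The IFNA effect (IFNA minus placebo) exceeded the day 15 pregnancy effect for the first C2 probe set, by 1.23 ± 0.211 (adjusted p = 0.00733), and for the first SERPING1 probe set, by 0.72 ± 0.154 (adjusted p = 0.0283). These are 2 of 14 probe sets, while 0.187% of all probe sets were higher in this test. Over all probe sets 45 were higher and 44 lower, against 28 and 44 after quantile normalisation and 33 and 62 after shifting the arrays to 1 median. The SERPING1 call ended without IFNA heifer 2, placebo heifer 3, day 15 cyclic heifer 1 or 2, or day 15 pregnant heifer 2 or 3. Its difference was 0.66 to 0.81 over all 12 fits without 1 heifer, and 0.36 (adjusted p = 0.392, the highest over its alternatives) with PBS in place of placebo. The C1q chains had differences of 1.14 to 1.24 that did not pass (C1QB, adjusted p = 0.104), with intervals above 0 before adjustment (C1QB, 0.55 to 1.94). For C1R (0.20, 95% interval -0.24 to 0.64) and C4A (0.49, -0.39 to 1.37) no difference between the effects was detected.

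Against day 18 pregnancy, 1 of 14 probe sets passed, and 5 had an unadjusted p below 0.05. The difference was 0.01 for C1QC (95% interval -0.69 to 0.71), 0.16 for C1QB (-0.49 to 0.81), 0.20 for C1R (-0.21 to 0.61), 0.30 for C4A (-0.53 to 1.12) and -0.36 for the first C2 probe set (-0.77 to 0.04), intervals that all include 0. The intervals lay above 0 before adjustment for C1S (0.42, 0.06 to 0.78, adjusted p = 0.292) and the first SERPING1 probe set (0.38, 0.09 to 0.68, adjusted p = 0.218), and below 0 for the third C3 probe set (-0.82, -1.46 to -0.18, adjusted p = 0.226). For the second C2 probe set the IFNA effect was smaller than its day 18 effect by -1.41 ± 0.196 (adjusted p = 0.000253), while 0.72% of all probe sets were lower in this test. Over all probe sets 89 were higher and 173 lower, against 67 and 226 after shifting. CFB differed by -1.59 ± 0.408, the largest in size, and missed the threshold (adjusted p = 0.0515). Over its alternatives the adjusted p ranged from 0.011 to 0.302: it passed after quantile normalisation (-1.88, adjusted p = 0.011), after shifting the arrays to 1 median (-1.63, 0.0405), without dim probe sets (-1.59, 0.0454), and in 3 of 14 fits without 1 heifer. Over all 14 of those fits the CFB difference was -1.87 to -1.32. After quantile normalisation the first C2 probe set also passed, at -0.76 (adjusted p = 0.032, and up to 0.788 over its alternatives).

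**Figure D3:**
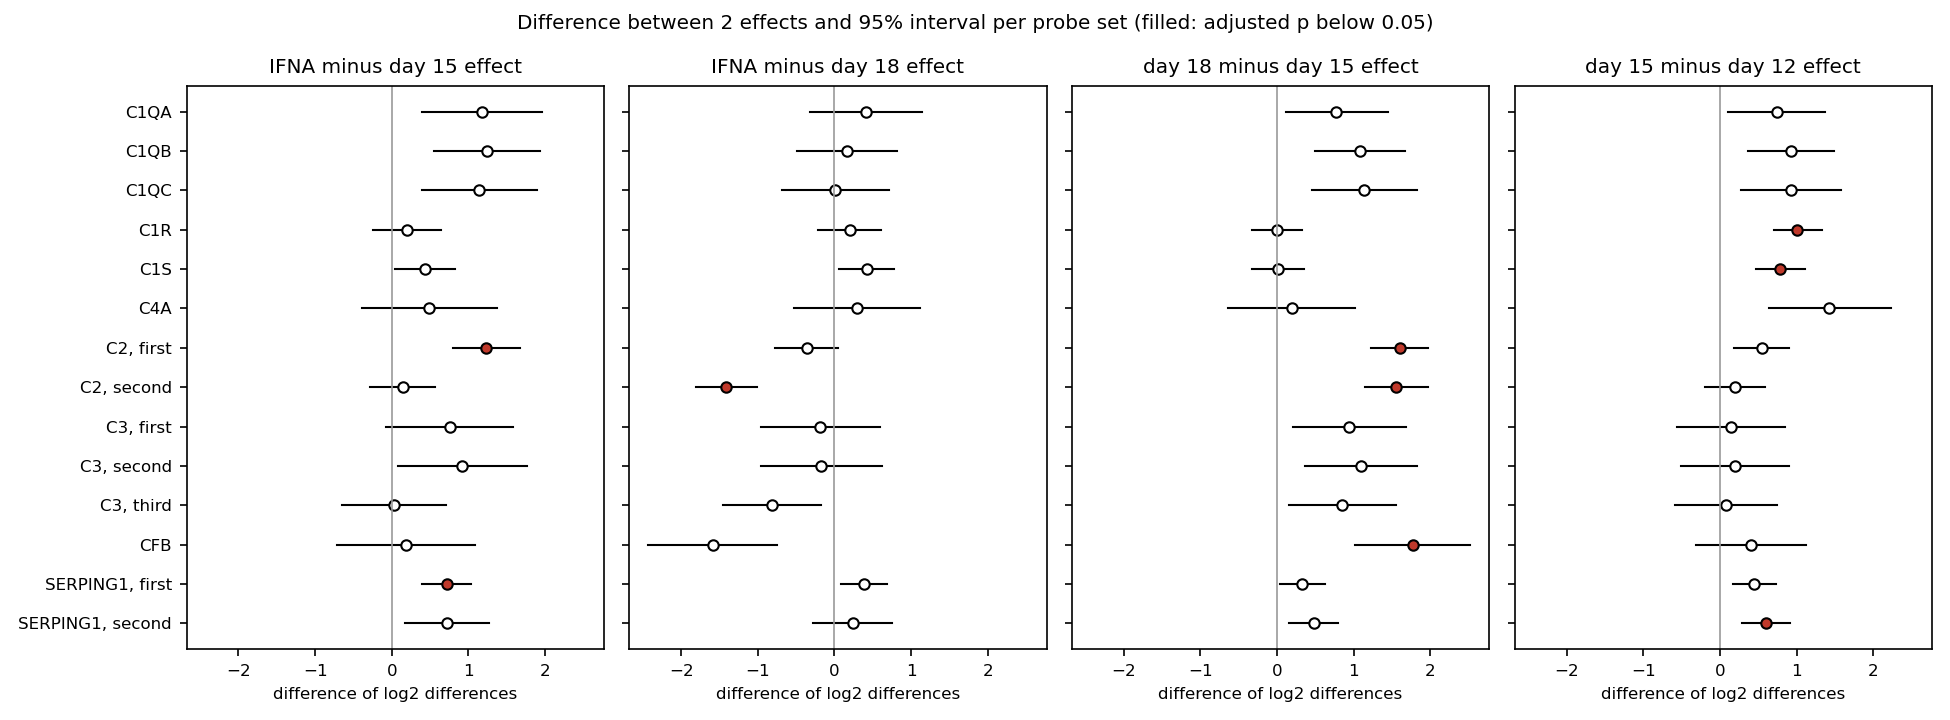
Difference between 2 effects (dots) with its 95% interval (lines) for each complement probe set, in log2 units: IFNA minus day 15 pregnancy, IFNA minus day 18 pregnancy, day 18 minus day 15 pregnancy and day 15 minus day 12 pregnancy; filled dots have an adjusted p below 0.05. C1R, C1S and C4A sit near 0 in the panel of day 18 minus day 15, while both C2 probe sets (1.60 and 1.55) and CFB (1.77) lie to the right.

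The pregnancy effect was larger on day 15 than on day 12 for the C1 proteases and 1 of 2 SERPING1 probe sets. It was larger on day 18 than on day 15 for C2 and factor B. The days differ in heifers, in the part of the horn sampled and in the set of arrays, so a growth with time cannot be told apart from these. The day 15 effect exceeded that of day 12 for C1R by 1.01 ± 0.152 (adjusted p = 0.00032), for C1S by 0.79 ± 0.155 (adjusted p = 0.00574) and for the second SERPING1 probe set by 0.60 ± 0.15 (adjusted p = 0.0392). The first SERPING1 probe set differed by 0.45 ± 0.134 and did not pass (adjusted p = 0.0925). Thus 3 of 14 probe sets passed, while 1.37% of all probe sets were higher in this test. The call of the second SERPING1 probe set ended in 11 of 16 fits without 1 heifer (0.54 to 0.66 over all 16): without day 12 cyclic heifer 2, 3 or 4, day 12 pregnant heifer 1, 2, 4 or 5, day 15 cyclic heifer 2 or 3, or day 15 pregnant heifer 1 or 2. C4A had the largest difference of the set, 1.43 ± 0.382, and missed the threshold (adjusted p = 0.0537). It passed without dim probe sets (adjusted p = 0.046), with the replicate block (0.042) and in 4 of 16 fits without 1 heifer. Its difference was 1.21 to 1.67 over all 16 of those fits. Over its alternatives the adjusted p ranged from 0.0313 to 0.139. Without day 15 cyclic heifer 1 the count of probe sets that passed was 5. The day 18 effect exceeded that of day 15 for C2 by 1.60 ± 0.18 and 1.55 ± 0.199 (adjusted p = 0.000227 and 0.000547) and for CFB by 1.77 ± 0.359 (adjusted p = 0.0394). These are 3 of 14 probe sets, while 0.167% of all probe sets were higher in this test. The CFB call ended in 10 of 14 fits without 1 heifer, namely each of the 6 day 15 heifers, day 18 cyclic heifer 1, 2 or 3, or day 18 pregnant heifer 3. Over all 14 of those fits the CFB difference was 1.56 to 1.96. In the same test C1R gave 0.00 (95% interval -0.33 to 0.33), C1S 0.01 (-0.33 to 0.35) and C4A 0.19 (-0.64 to 1.02). The C1q chains gave 0.77 to 1.13 and C3 0.85 to 1.09 without passing.

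Among the other complement genes few passed with IFNA or on day 15, and on day 18 genes passed in both directions, as over all probe sets. The values below cover 29 other complement genes of the lectin and alternative pathways, the terminal components, the regulators and the receptors. This list, like the members, was chosen with earlier results of these data known, so the contrast between them is a description only. With IFNA against placebo none of the 29 passed with limma (6 had an unadjusted p below 0.05), and their median difference was -0.04. Against PBS, CD93, a receptor of endothelial and myeloid cells, fell by 1.08 ± 0.158 (adjusted p = 0.0164), while 0.15% of all probe sets fell, and the others did not pass. On day 15, 0 rose and 2 fell, while 2.75% of all probe sets rose and 2.32% fell: MASP2, a protease of the lectin pathway (-0.40 ± 0.102, adjusted p = 0.0224), and CD46, a membrane cofactor for C3b cleavage (-0.23 ± 0.0654, adjusted p = 0.0425). On day 18, 4 of 29 rose and 5 fell, with a median of -0.03, while 8.84% of all probe sets rose and 10.2% fell. CFI, the protease that inactivates C3b and C4b, rose by 1.11 ± 0.263 (adjusted p = 0.00458), properdin (CFP), which stabilises the alternative pathway enzyme, by 0.62 ± 0.0873 (adjusted p = 2.87e-05), while CD93 fell by 0.81 ± 0.212 (adjusted p = 0.00913) and factor D (CFD), which cleaves factor B, by 0.60 ± 0.14 (adjusted p = 0.00414). None of the 7 terminal components C5 to C9 passed with IFNA or on day 15 or 18.

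**Figure D4:**
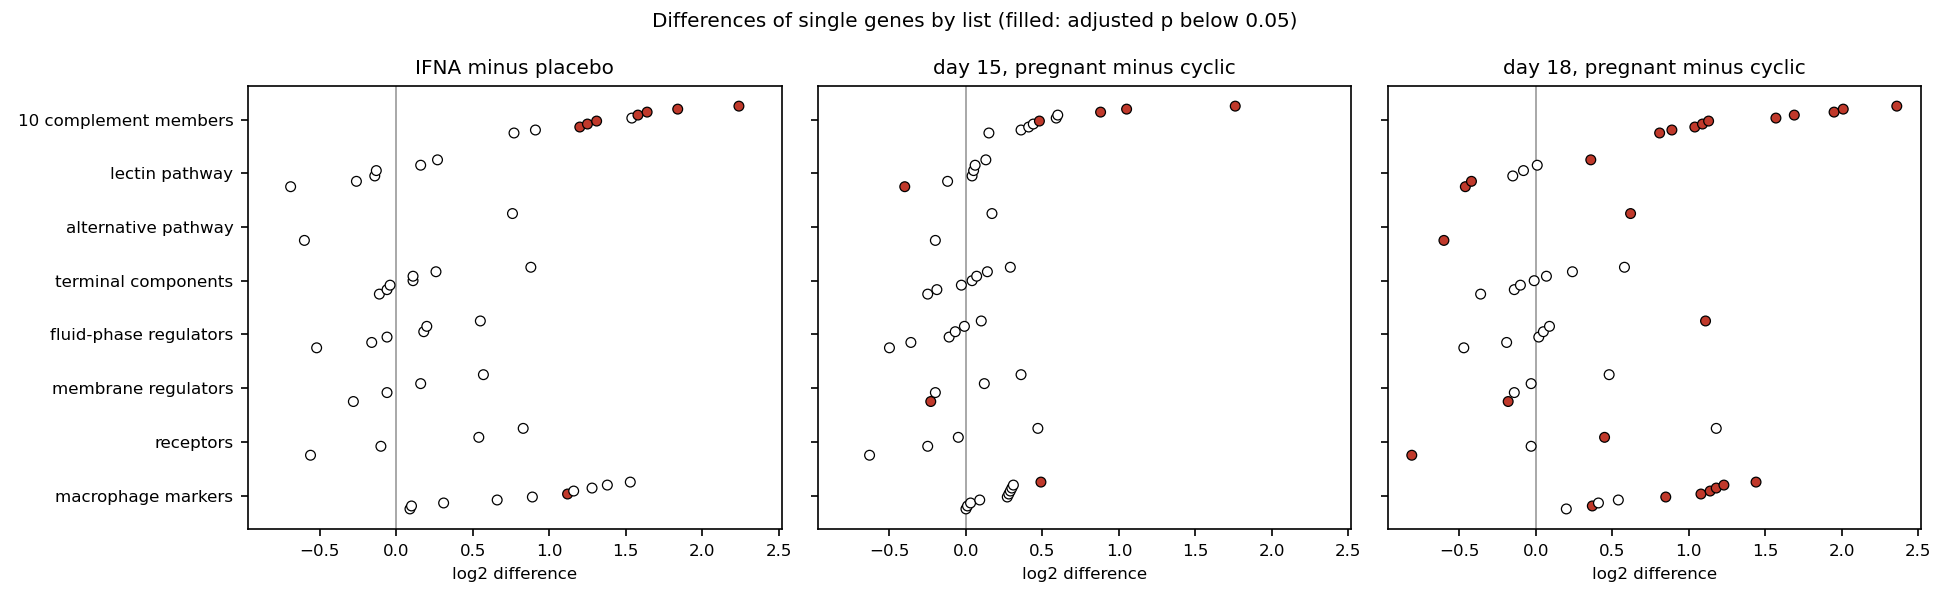
Log2 differences of single genes (dots) in the 10 complement members, the 29 other measured complement genes by role and 10 macrophage and dendritic cell markers, for IFNA minus placebo, day 15 pregnant minus cyclic and day 18 pregnant minus cyclic; filled dots have an adjusted p below 0.05. The members and the macrophage markers lie at or to the right of 0 in each panel, with 1, 1 and 7 of the 10 markers filled, while the other complement genes lie on both sides. Of all probe sets, 0.837%, 2.75% and 8.84% rose in the 3 comparisons.

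Of the macrophage and dendritic cell markers, most rose on day 18 and few passed with IFNA or on day 15. By comparison, 0.837% of all probe sets rose with IFNA against placebo, 0.712% against PBS, 2.75% on day 15 and 8.84% on day 18. Of 14 markers, 10 were measured (CD163, MRC1, CLEC7A and LYZ were not analysed here), and the values have no true zero. With IFNA, 10 of 10 had a positive difference from placebo, with a median of 1.01, and 1 rose, CSF1R, the receptor for macrophage colony stimulating factor (1.12 ± 0.188, adjusted p = 0.0315). In that comparison 7 of the 10 had an unadjusted p below 0.05 with limma. Against PBS 0 of 10 passed with limma (6 had an unadjusted p below 0.05), 9 had a positive difference and the median was 0.63. On day 15, 1 rose, AIF1 (0.49 ± 0.12, adjusted p = 0.0173), and the median was 0.27. On day 18, 7 rose, among them MSR1, a scavenger receptor (1.44 ± 0.196), and FCGR3A, an Fc receptor (1.23 ± 0.127), with a median of 0.97. The unadjusted p was below 0.05 with limma for 3 of the 10 markers on day 15 and for all 10 on day 18. Their mean level per array was 7.31 to 7.84 with IFNA, 6.30 to 7.08 with placebo and 6.96 to 7.11 with PBS. It was 6.40 to 6.61 in day 12 pregnant and 6.36 to 6.75 in day 12 cyclic heifers, 6.61 to 6.71 and 6.31 to 6.64 on day 15, and 7.72 to 8.07 and 6.93 to 7.03 on day 18. FCGR3A averaged 6.90 with IFNA, 5.37 with placebo and 5.74 with PBS, and AIF1 averaged 9.37, 7.99 and 8.35. CD14 averaged 9.02 with IFNA, 8.72 with placebo and 9.00 with PBS, and CD68 averaged 6.74, 6.64 and 6.88. CD14 and CD68, which are widely used markers, did not pass with IFNA against placebo (0.31 ± 0.216 and 0.10 ± 0.173), on day 15 or on day 18 (0.54 ± 0.206 and 0.41 ± 0.175). The part of macrophage number in the complement results was not tested.

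Few markers of other cell types passed with IFNA or on day 15. Among all probe sets, 0.837% rose with IFNA against placebo, 2.75% rose and 2.32% fell on day 15, and 8.84% rose and 10.2% fell on day 18. For lists this short, a count of 0 says little beside these shares. IGHM, the heavy chain of immunoglobulin M, rose by 1.60 ± 0.288 with IFNA against placebo and by 1.28 ± 0.198 on day 18, as 1 of 4 B and plasma cell markers each time, with list means of 6.65 to 6.82 with IFNA against 5.94 to 6.31 with placebo, and 7.10 to 7.72 in pregnant against 6.44 to 7.96 in cyclic heifers on day 18. None of 9 T and NK cell markers passed (medians 0.26, 0.00 and 0.06 for IFNA, day 15 and day 18). Of 8 endothelial markers, 0 passed with IFNA against placebo, 1 fell on day 15 and 4 fell on day 18 (medians -0.14, -0.38 and -0.47). With IFNA against PBS, 2 of the 8 fell, 0 had a positive difference and the median was -0.53, while 0.15% of all probe sets fell. Between placebo and PBS 0 of the 8 passed, with a median of -0.36. Of 5 neutrophil markers, 0 passed with IFNA, 1 rose on day 15 and 2 rose on day 18, led by S100A12 (2.41 ± 0.284). Of 8 epithelial markers, 0 passed with IFNA, 2 rose on day 15 (CDH1, 0.64 ± 0.0936, and CLDN4, 1.32 ± 0.195), and on day 18 CDH1, CLDN4 and SERPINA14 (3.32 ± 0.395) rose and KRT18 fell (medians 0.07, 0.11 and 0.08). Their mean level per array was 9.37 to 9.54 with IFNA against 8.93 to 9.67 with placebo, 9.23 to 9.48 in pregnant against 8.89 to 9.15 in cyclic heifers on day 15, and 9.93 to 10.08 against 9.34 to 9.64 on day 18. The pregnant and cyclic ranges of this mean did not overlap on either day. A positive difference was seen for 5 of the 8 markers on day 15 and for 4 on day 18, so the mean does not speak for the whole list. On day 18 EPCAM averaged 12.50 in pregnant and 12.55 in cyclic heifers, and KRT19 averaged 9.64 and 9.65. Of 8 stromal markers, 0 passed with IFNA, PDGFRA rose on day 15 and on day 18, and COL3A1 fell on day 18 (medians -0.35, -0.05 and -0.14). None of 7 trophoblast markers passed (medians -0.10, 0.16 and 0.06), and the pregnancy-associated glycoprotein PAG2 was at most 3.32 on every array. Other markers of this list were brighter, also in cyclic heifers, where TKDP1 was at 6.80 to 7.69 and ELF5 at 3.67 to 7.08. Their signal therefore does not tell whether trophoblast was present. Of 5 hepatocyte markers, 0 passed with IFNA or on day 15, and ALB (-0.35 ± 0.112) and APOA1 (-0.78 ± 0.274) fell on day 18. Their part in the complement results was not tested.

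Within the arrays the members formed close groups. After subtracting the mean of each array set, Pearson's r over the 33 arrays was 0.96 to 0.98 among the C1q chains, 0.97 between C1R and C1S, 0.94 and 0.95 between these and SERPING1, and 0.52 between C3 and CFB, the lowest pair. These values describe arrays that share the same group differences, and genes that differ between the same groups correlate for that reason. Among all other named genes, the closest to C1QB was RNASE6, a ribonuclease of myeloid cells (r = 0.97, Spearman's rho = 0.95), followed by FCGR1A, the high-affinity Fc gamma receptor (0.94), and CD53, a leukocyte tetraspanin (0.94). C1QA (RNASE6, FCGR1A and LAPTM5, 0.88 to 0.90) and C1QC (FCGR1A, RNASE6 and CYBB, 0.91 to 0.93) had overlapping neighbours. For C1R and C1S the closest was IFI16, an interferon-inducible DNA sensor (0.95 for each), followed by EPSTI1 (0.93 for each) and by DTX3L for C1R and TRIM34 for C1S. C4A was closest to PLAC8B (0.95), IFI16 (0.94) and MX2 (0.93). C2 was closest to IDO1, a tryptophan-degrading enzyme (0.95), ANXA1 (0.93) and the MHC class II chaperone gene BOLA-DMB (0.93), and SERPING1 to CD53 (0.94), RNASE6 (0.93) and ALOX5AP (0.92). CFB and C3 had weaker neighbours: UPK1B (0.83), PTX3, a secreted pentraxin (0.83), and PPA1 (0.82) for CFB, and PTAFR (0.85), FMOD (0.84) and NR2F2 (0.83) for C3.

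**Figure D5:**
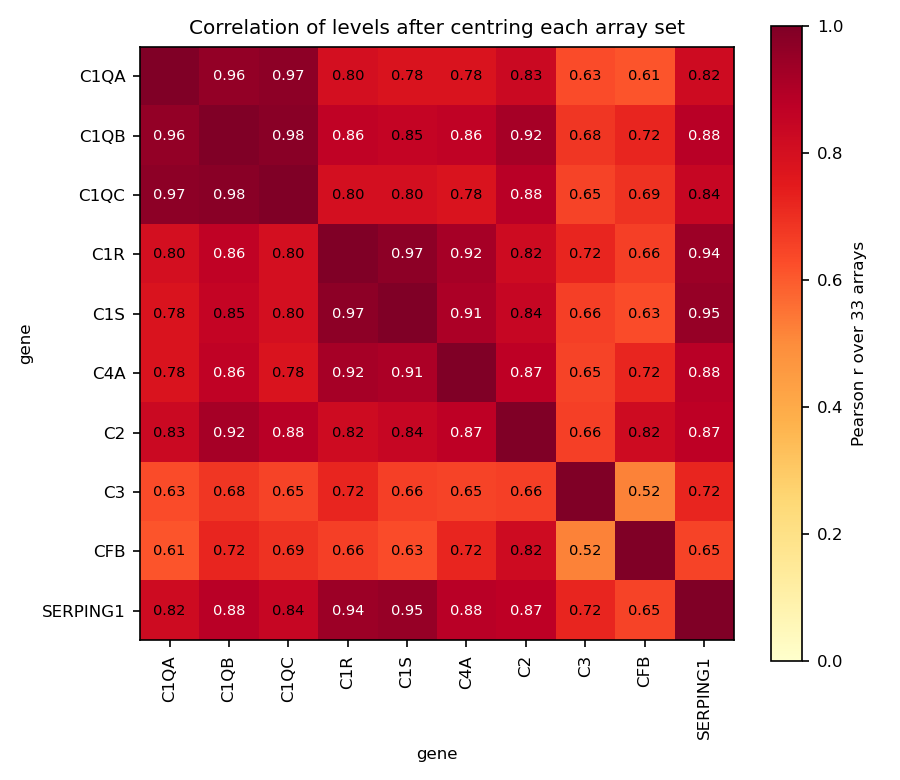
Pearson's r between the levels of the 10 complement genes over 33 arrays, after subtracting the mean of each array set; darker cells are closer to 1. The C1q chains (0.96 to 0.98) and C1R, C1S and SERPING1 (0.94 to 0.97) form dark blocks, and the rows of C3 and CFB are the palest, down to 0.52 between them.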

How the data were processed

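The authors deposited 1 table of log2 expression values per probe set for 33 arrays; the submitters' processing notes name RMA and affy, without versions. Sorted values were nearly the same within 4 sets of arrays (9 biopsy arrays, and those of days 12, 15 and 18) and differed between them, which was read as separate normalisation. RMA fits each probe set over the arrays processed together, so levels of different sets are not on 1 scale. The number of arrays limits the precision.

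Of 24128 probe sets, 112 controls were left out. Gene names came from the platform annotation (13292 probe sets with 1 symbol, 86 with several, 10638 with none), and 13263 were matched to RefSeq by gene identifier. Linear models with 1 mean per group and no covariates (lmFit, then eBayes, of limma 3.58.1 under R 4.3.3; two-sided) were fitted on the 9 biopsy arrays, the 24 slaughter arrays or, for IFNA against pregnancy effects, all 33, and the procedure was tested on simulated data. Differences between effects were tested as interaction contrasts. Intervals are 95% and not adjusted. Where a gene has several probe sets, the one with the highest mean stands for it in counts of genes. Text names all members, other complement genes past the threshold (at most 4 per comparison by size) and, for each member, the 3 most correlated other named genes. Alternatives were quantile normalisation, arrays shifted to 1 median, probe sets with a mean under 5 in every group left out, a replicate block, the 2 compared groups alone, a GAPDH covariate in the biopsies, PBS for placebo in the interaction contrasts, and each array left out in turn. The members and the gene lists were chosen with earlier results of these data known.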

Additional observations from a re-analysis of the deposited data

Results flagged for a closer look

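9 differences between effects passed the test. The IFNA effect was larger than the day 15 pregnancy effect for the first C2 probe set (1.23) and the first SERPING1 probe set (0.72), and smaller than the day 18 effect for the second C2 probe set (-1.41). The day 18 pregnancy effect was larger than the day 15 effect for CFB (1.77) and both C2 probe sets (1.60 and 1.55). The day 15 effect was larger than the day 12 effect for C1R (1.01), C1S (0.79) and the second SERPING1 probe set (0.60).

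Single heifers stood apart from the rest of their group by Dixon's criterion in 5 of 56 cases (each of the 14 probe sets in the groups of 4 or 5 heifers), where chance gives about 1 in 20. Day 12 cyclic heifer 3 was high at 2 C3 probe sets, with 9.82 at the first (others 9.00 to 9.23) and 7.71 at the second (others 6.93 to 7.09). Day 18 pregnant heifer 2 was high at the second of these, with 10.24 (others 9.56 to 9.62). Day 12 pregnant heifer 2 was low for the second C2 probe set, with 4.33 (others 4.78 to 4.96). Day 18 pregnant heifer 4 had a C1R level of 12.20 beside others at 12.26 to 12.27, a small departure in a group with almost no spread.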

How the results depend on the processing

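Of 1666 member values recomputed under an alternative and counted here, 1531 kept their direction and side of the threshold, 75 lost and 23 gained a call, and 37 changed sign, none of them a value past the threshold. Left out of these counts were probe sets whose differences are not given above for placebo against PBS, day 12 or day 15 minus day 12. The count with IFNA against placebo was 7 and became 11 with the GAPDH covariate, and 4 to 7 without 1 array. Against PBS it was 6, 3 with the replicate block and 1 to 4 without 1 array. For the IFNA minus day 15 effect it was 2, 1 after shifting arrays to 1 median, 1 with PBS for placebo and 1 to 2 without 1 array. For the IFNA minus day 18 effect it was 1, 3 after quantile normalisation, 2 after shifting, 2 without dim probe sets and 1 to 2 without 1 array. For the day 18 minus day 15 effect it was 3, and 2 to 3 without 1 array; for the day 15 minus day 12 effect it was 3, 5 with the replicate block and 2 to 5 without 1 array. It was 5 on day 15 (4 to 5 without 1 array), 14 on day 18 (14 without any 1 array), and 0 on day 12 and for placebo against PBS in every fit. The causes were not tested. Among the values counted, those that changed sign, none past the threshold, were these. With PBS for placebo, the IFNA minus day 15 effect was -0.29 for C1R and -0.05 for the third C3 probe set, and the IFNA minus day 18 effect was -0.04 for C1QB, -0.13 for C1QC and -0.28 for C1R. After shifting, the third C3 probe set gave -0.01 in the first and C1QC -0.03 in the second, and after quantile normalisation C1QB gave -0.15 and C1QC -0.34 in the second. Without 1 array, the third C3 probe set ranged from -0.04 to 0.24 with IFNA against placebo and -0.12 to 0.16 against PBS, and on day 15 C3 ranged from -0.14 to 0.25 at the third, -0.14 to 0.36 at the first and -0.11 to 0.35 at the second. The IFNA minus day 15 effect ranged from -0.10 to 0.45 for CFB and -0.15 to 0.24 for the third C3 probe set. The IFNA minus day 18 effect ranged from -0.07 to 0.35 for C1QB, -0.17 to 0.15 for C1QC, -0.07 to 0.47 for the second SERPING1 probe set, -0.50 to 0.11 for the first C3 probe set and -0.51 to 0.11 at the second. The day 18 minus day 15 effect ranged from -0.11 to 0.07 for C1S and -0.05 to 0.39 for C4A. Replicate numbers are shared between groups but are not stated to pair heifers, so they were not taken to. Deviations of same-numbered arrays had r of -0.29 to 0.27 for IFNA and placebo and -0.34 to -0.15 for IFNA and PBS. For placebo and PBS r was -0.11 to 0.37. It was 0.03 to 0.20 on day 12, 0.02 to 0.15 on day 15 and -0.22 to 0.08 on day 18. Arrays with different numbers had -0.20 to 0.12 on day 12 and -0.17 to 0.07 on day 15. These values do not exclude a pairing on days 12 and 15. With the replicate block, C1QB (adjusted p = 0.0791) and C1QC (0.0858) lost their calls against placebo, C1QB, C1QC (0.115 each) and C1S (0.0558) theirs against PBS, and CFB (0.0628) its call for day 18 minus day 15. With the arrays of the 2 groups alone, C1R lost its call against placebo (0.154), C1QB (0.058) and C1QC (0.0704) theirs against PBS, and the first SERPING1 probe set its call on day 15 (0.0558). Calls were also gained. The block gave calls to the first C2 probe set on day 15 (0.0449) and to C4A (0.042) and the first SERPING1 probe set (0.0495) for day 15 minus day 12. Against PBS, C1R passed with the 2 groups alone (0.0401) and the second SERPING1 probe set with the GAPDH covariate (0.0382). Over all probe sets, the number higher with IFNA than placebo was 201 and 122 with the 2 groups alone, and on day 15 it was 661 and 373 (557 and 92 lower). With the GAPDH covariate 39 were lower with IFNA than placebo in place of 7, and 78 in place of 36 against PBS (13 with the block). With PBS for placebo, 6 and 10 were higher and lower in the IFNA minus day 15 effect in place of 45 and 44 (28 higher after quantile normalisation), and 30 and 78 in the IFNA minus day 18 effect in place of 89 and 173. In the day 18 minus day 15 effect 10 were lower, 21 after quantile normalisation and 18 with the block. The number of arrays limits what could be detected.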
